A study of Arabidopsis thaliana with 6 samples.

Results

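The jacalin-related lectin genes that lie side by side on chromosome 1 of Arabidopsis thaliana were followed in dividing root cells and complete root meristems. The group was defined by name: 10 lectin genes with neighbouring locus codes between AT1G52000 and AT1G52130. They were chosen with the difference between sorted cells and meristems already known, so the values of that difference are given as a description of these genes and not as independent support. A gene was kept where a probe set (the set of short probes on the array that reports 1 transcript) named that gene and no other, and the probe set with the highest mean over the 6 arrays would have stood for a gene with several. Of the 10 listed genes, 5 had such a probe set, among 13333 genes measured in this way in all: AT1G52000, AT1G52050, AT1G52060, AT1G52070 and AT1G52100. Each of the 5 had 1 probe set, so the choice by mean level decided nothing. MBP1 (AT1G52040) and MBP2 (AT1G52030), AT1G52110, AT1G52120 and AT1G52130 are named only and were not analysed here.

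All plants were of accession Col-0, grown on vertical agar plates. In the first group, 3 samples held cells sorted by fluorescence from roots carrying a CYCB1;1-GFP reporter, a B-type cyclin fused to a fluorescent protein that marks cells around mitosis. In the second, 3 samples held complete root meristems cut out under a microscope; the labels do not give a reporter for them. Plant age and the sort gate were not given in the sources used here. RNA of each sample was measured on 1 Affymetrix array, and the series calls the 3 samples of a group biological replicates.

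Jacalin-related lectins are proteins with 1 or more jacalin domains, which bind sugars, many of them mannose or galactose. The family is large in Arabidopsis and its relatives. Some members are myrosinase-binding proteins, which join the enzymes that split glucosinolates, the defence compounds of this plant family. Others associate with PYK10, a beta-glucosidase stored in root cells in bodies derived from the endoplasmic reticulum (ER bodies), and form large complexes with it once the cell is broken. MBP1 and MBP2 of the chromosome 1 group are of the first kind; the roles of AT1G52050, AT1G52060 and AT1G52070 are not annotated by the tables used here beyond their locus codes.

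Of the group, the neighbours AT1G52050, AT1G52060 and AT1G52070, were strongly present in the meristems and much lower in the sorted cells. Each fell by roughly 5 on the log2 scale, between 31.1- and 35.3-fold by the group means, and every sorted sample lay below every meristem. The other measured members, AT1G52000 and AT1G52100, gave no signal in any of the 6 samples.

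AT1G52050 had levels of 10.71, 10.60 and 9.96 (log2) in meristem replicates 1, 2 and 3, and of 6.36, 3.86 and 5.62 in sorted replicates 1, 2 and 3. The lowest meristem stood 3.60 log2 above the highest sorted sample, so the groups did not overlap. The mean was 10.42 ± 0.41 in the meristems and 5.28 ± 1.28 in the sorted samples (both SD, n = 3), a difference of -5.14 (SE 0.74, limma adjusted p = 0.0227), or 35.3-fold.

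AT1G52060 had levels of 11.48, 11.45 and 10.53 in the meristems and of 7.20, 5.03 and 6.36 in the sorted cells, in the same order. Here too the groups stood apart, by 3.33 log2 at the nearest, and meristem replicate 3 and sorted replicate 2 were the lowest of their groups. The difference was -4.96 (SE 0.67, limma adjusted p = 0.0195), or 31.1-fold.

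AT1G52070 had levels of 11.86, 11.82 and 11.23 in the meristems and of 7.85, 4.92 and 7.15 in the sorted cells. The groups were 3.38 log2 apart at the nearest. The difference was -4.997 (SE 0.87, limma adjusted p = 0.0355), or 31.9-fold.

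AT1G52000 read 2.27 on all 6 arrays, the lowest value of the whole table, and AT1G52100 read 2.37 on all 6. A value within 0.5 of that lowest value is treated here as background, and nothing can be said of a difference between the groups for these genes.

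**Figure D1:**
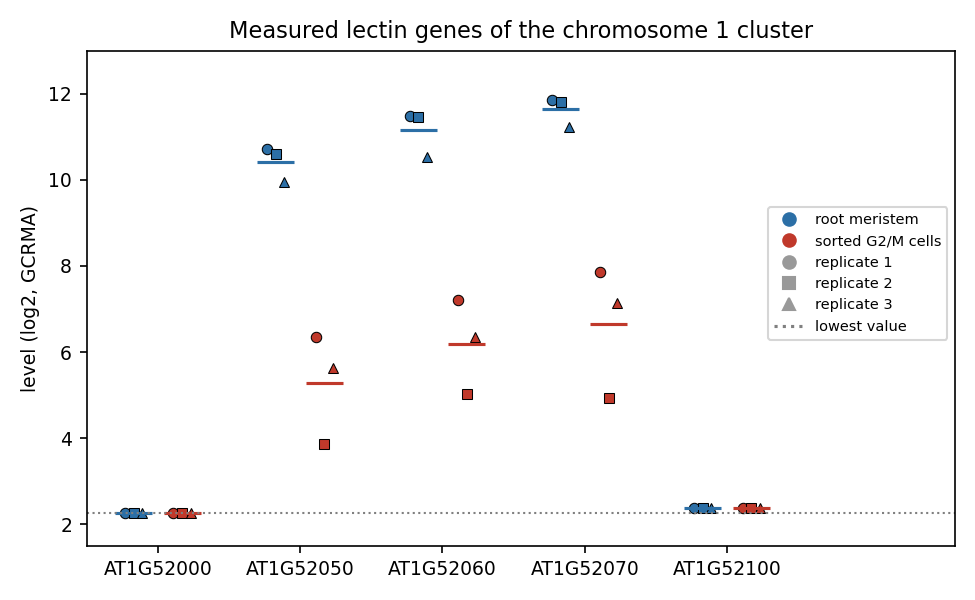
Levels (log2, y axis) of the 5 measured lectin genes of the chromosome 1 group on each array: blue, root meristems; red, sorted G2/M cells; symbols, replicates; bars, group means (n = 3 each); dotted line, the lowest value in the table (2.27). The 3 middle genes lie between 9.96 and 11.86 in the meristems and between 3.86 and 7.85 in the sorted cells, while AT1G52000 and AT1G52100 lie at background throughout.

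Of the 5 measured members 3 were called lower (limma adjusted p under 0.05 over all 22746 probe sets) and 0 higher. Of all probe sets tested 11.5% were called, 7.06% lower and 4.44% higher in the sorted cells, and 16.3% had all 3 sorted samples below all 3 meristems. Since this difference was known when the genes were chosen, nothing is read from the share. The median difference over the 5 members was -4.96 and over all probe sets 0.00. Among all 22746 probe sets, AT1G52050 had the 8th lowest difference, AT1G52070 the 11th and AT1G52060 the 15th; 36 probe sets (0.158%) had a difference of -4 or lower.

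The calls depended on the fit and on single arrays. With the replicate number as a block none of the 3 was called, with limma adjusted p = 0.116 for AT1G52050, 0.111 for AT1G52060 and 0.142 for AT1G52070. The calls were also lost without sorted replicate 3 or without any 1 meristem (adjusted p between 0.0634 and 0.140 over the 3 genes and 4 settings), while the differences themselves stayed between -5.38 and -4.79. The spread lay mainly in the sorted cells, where the SD was 3.17 times that of the meristems for AT1G52050, 2.03 times for AT1G52060 and 4.34 times for AT1G52070. The fit takes 1 spread for both groups.

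The sorted samples kept 1 order in all 3 genes: replicate 1 highest, replicate 3 next, replicate 2 lowest. Against the meristem mean AT1G52050 had differences of -4.06, -6.56 and -4.80 in sorted replicates 1, 2 and 3. For AT1G52060 these differences were -3.95, -6.12 and -4.79, and for AT1G52070 they were -3.79, -6.72 and -4.49. Sorted replicate 1 thus stood above sorted replicate 2 by 2.50, 2.17 and 2.93 log2 in the 3 genes. Over 11503 probe sets with a mean above the median of the table, the median of that contrast was -0.20, and 3.67% of them reached 2 or more. Sorted replicate 3 stood above sorted replicate 2 by 1.76, 1.33 and 2.23 log2 (median over those probe sets -0.07, with 1.46% at 2 or more). Sorted replicate 1 stood above sorted replicate 3 by 0.74, 0.84 and 0.70 log2 (median over those probe sets -0.10).

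Other quantities set sorted replicate 1 apart from sorted replicates 2 and 3, whereas in the 3 lectin genes sorted replicate 2 stood farthest from the others. The root hair expansins EXPA7 and EXPA18, which loosen walls of growing hairs, read 7.07 and 6.67 in sorted replicate 1 and between 2.27 and 2.69 on the other 5 arrays. Those were the 2 measured genes of 6 listed for hair and epidermis, named after their values were seen, and neither was called (limma adjusted p = 0.595 and 0.613). Sorted replicate 1 also carried poly-A spike-ins, control transcripts added to the RNA, as the meristems did: their mean over 12 probe sets was 5.76 there, between 6.14 and 7.19 in the meristems, and 3.16 and 2.97 in sorted replicates 2 and 3. Between the arrays that carried spike-ins, sorted replicate 1 against the 3 meristems, the differences were those given for sorted replicate 1, -4.06, -3.95 and -3.79. With the spike-in split as a block, sorted replicates 2 and 3 form a level of their own. The group difference in that fit is therefore sorted replicate 1 against the meristems. Calls kept or lost with that block, for these and other genes, rest on 1 sorted sample. The level of the fold rested on single arrays: without sorted replicate 2 it was 21.6-, 20.7- and 17.6-fold, and without sorted replicate 1 it was 51.4-, 44.0- and 48.6-fold. Without sorted replicate 1 the differences were -5.68, -5.46 and -5.60, and all 3 genes were called (limma adjusted p = 0.0274, 0.0241 and 0.0376). The part of these technical and tissue differences in the spread was not tested.

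The 3 genes had similar profiles. Pearson's r between them over the 6 arrays was 0.999 for AT1G52050 with AT1G52060, 0.998 for AT1G52050 with AT1G52070 and 0.994 for AT1G52060 with AT1G52070, a description that holds the group difference and 3 arrays a group. Taken as a ratio within each array, AT1G52050 over AT1G52060 changed by -0.19 log2 between the groups, AT1G52050 over AT1G52070 by -0.15 and AT1G52060 over AT1G52070 by 0.04. The groups overlapped for all 3 ratios. No test result is read from them, since an exact permutation test of 3 samples against 3 cannot give a p under 0.1. The largest departure was in sorted replicate 2, where AT1G52060 over AT1G52070 was 0.11, against -0.79 to -0.37 on the other 5 arrays. How far probes of one gene also bind transcripts of its neighbours was not tested.

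None of the measured genes around them was called. In the gene order of RefSeq assembly TAIR10.1, AT1G52050, AT1G52060 and AT1G52070 follow each other with 0 genes between them. From the first to the last of the 10 lectins the order holds 16 genes, and 5 of the 6 that are not on the list are pseudogenes. The sixth, AR791, lies directly beyond AT1G52070 and read 5.20, 5.24 and 5.03 in the meristems and 4.57, 4.81 and 4.44 in the sorted cells. The groups did not overlap, but the difference of -0.55 was not called (SE 0.12, limma adjusted p = 0.0623). It was called with sorted replicate 2 left out (-0.65, limma adjusted p = 0.0450), with the filter at the median level (0.0220) and with centring on reference genes (0.0378).

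Of 33 further genes with locus codes from AT1G51900 to AT1G52230, AR791 and the pseudogenes included, 17 were measured and limma called 0 of them, with 3 at an unadjusted p under 0.05, beside 11.5% called over all probe sets. Of the 17, 12 stood at background on all arrays, and the median difference was 0.00. On the side of AT1G51900, IAA18, an Aux/IAA repressor of auxin responses, read 2.94, 2.64 and 3.03 in the meristems and 2.40, 2.56 and 2.41 in the sorted cells (-0.41, SE 0.12, limma adjusted p = 0.124), a difference from near background.

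**Figure D2:**
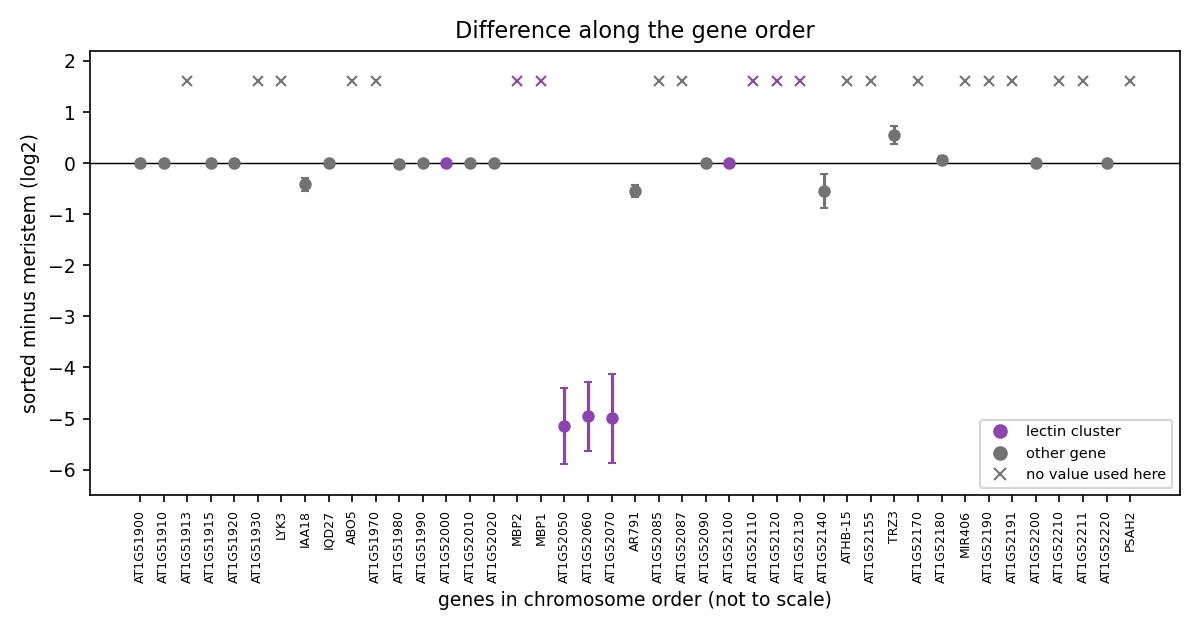
Difference between sorted cells and meristems (log2, y axis) for the measured genes around the lectin group, in chromosome order and not to scale: purple, listed lectins; grey, other genes; bars, SE of the fit; crosses at the top, genes with no value used here. AT1G52050, AT1G52060 and AT1G52070 lie near -5, and every other measured gene lies between -0.55 and 0.55.

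Of the measured jacalin-related lectin genes elsewhere in the genome none was called lower. Such genes were listed from general knowledge and from gene symbols and synonyms, without a check against gene descriptions. Of 38 listed, 17 were measured. Of these 2 rose, 0 fell and 15 were not called, beside 4.44% called higher and 7.06% called lower over all probe sets. The median difference over the 17 was 0.00, and 13 of them stood at background on all arrays, so that only 4 carried signal.

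AT5G35940 went the other way, with levels of 8.07, 7.87 and 6.97 in the meristems and 10.20, 10.56 and 10.19 in the sorted cells. The groups did not overlap, and the sorted samples had an SD of 0.21. The gene rose by 2.68 log2 (SE 0.34, limma adjusted p = 0.0173), or 6.41-fold. With the replicate block the adjusted p was 0.0916, with the spike-in block 0.0812, and the call was lost without sorted replicate 2 or 3 or meristem replicate 1 or 2 (adjusted p between 0.0505 and 0.0738).

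AT2G25980 read 11.43, 11.46 and 11.26 in the meristems and 11.77, 12.01 and 12.01 in the sorted cells. It rose by 0.55 log2 (SE 0.10, limma adjusted p = 0.0374), or 1.46-fold, a small difference without overlap. The call was lost with the replicate block (adjusted p = 0.164), the spike-in block (0.109), the trended prior (0.0669) and without any 1 array other than sorted replicate 1 (between 0.103 and 0.132).

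JAL34, one of the lectins known from PYK10 complexes, read 12.13, 12.00 and 11.70 in the meristems and 12.46, 11.49 and 12.09 in the sorted cells. The groups overlapped, with a difference of 0.07 (95% interval -0.72 to 0.86, limma adjusted p = 1). JAL33, from the same set of lectins on chromosome 3, read 7.76, 6.99 and 5.68 in the meristems and 7.18, 4.99 and 6.52 in the sorted cells. Its difference of -0.58 had a wide interval, -2.85 to 1.69 (limma adjusted p = 0.794). JAL33 and JAL34 shared the order of the chromosome 1 genes among the sorted samples, with replicate 1 standing 2.19 and 0.97 log2 above replicate 2.

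The change of the chromosome 1 genes was set against that of these 4 lectins within each array. For the 12 pairs of 1 of the 3 genes with 1 of the 4 lectins, the log2 ratio was lower in all 3 sorted samples than in all 3 meristems. The change lay between -7.82 (AT1G52050 over AT5G35940) and -4.38 (AT1G52060 over JAL33). The 3 genes had been chosen with their fall known, which fixed this outcome, so it is a description and no test result is read from it.

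**Figure D3:**
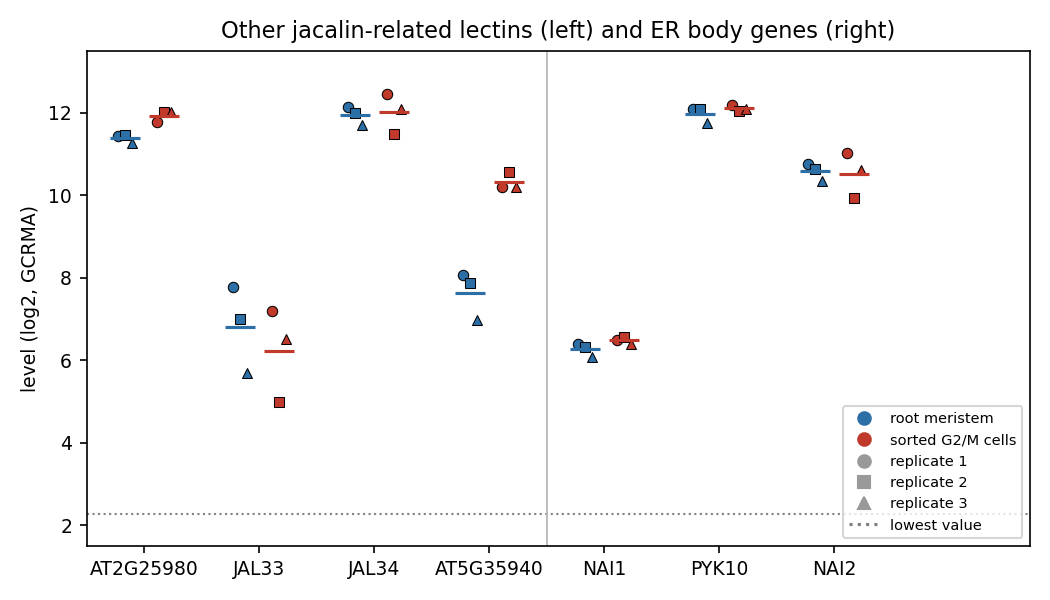
Levels (log2, y axis) on each array of the 4 jacalin-related lectin genes outside the chromosome 1 group that carried signal (left of the line) and of the 3 ER body genes that did (right): blue, meristems; red, sorted cells; symbols, replicates; bars, means (n = 3 each); dotted line, the lowest value in the table. AT5G35940 is higher in all sorted samples, while JAL33, JAL34, PYK10, NAI1 and NAI2 overlap between the groups.

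The genes of ER bodies and of glucosinolate breakdown, the known partners of several jacalin-related lectins, were examined beside them. Of 22 listed genes 6 were measured and 3 carried signal. Limma called 0 of the 6, with 0 at an unadjusted p under 0.05, beside 11.5% called over all probe sets, and so small a list says nothing by its count. PYK10, the main beta-glucosidase of root ER bodies, read 12.08, 12.08 and 11.74 in the meristems and 12.19, 12.04 and 12.09 in the sorted cells, a difference of 0.14 (95% interval -0.17 to 0.45, limma adjusted p = 0.610). NAI2, a protein needed to form ER bodies, read 10.75, 10.63 and 10.34 in the meristems and 11.02, 9.94 and 10.60 in the sorted cells, again with replicate 1 highest and replicate 2 lowest. Its difference was -0.05 (95% interval -0.92 to 0.81), and that of NAI1, the transcription factor that controls both, was 0.22 (95% interval -0.06 to 0.49). NAI1 read 6.49, 6.56 and 6.38 in sorted replicates 1, 2 and 3, with replicate 2 highest. NAI1 was named after its values were seen, to complete the 3.

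Over 2441 genes outside the group that varied by at least 1 log2 over the 6 arrays, the profiles most like the mean of AT1G52050, AT1G52060 and AT1G52070 were found by Pearson's r. This describes 6 arrays in 2 groups, and 252 genes had r of 0.95 or more. The 5 with the highest r were AT3G19430 (0.997), AT2G22425 (0.997), AT5G60530 (0.997), AT2G37540 (0.995) and AT1G26850 (0.995). They differed in the size of the change: AT3G19430 (-6.03 log2) and AT5G60530 (-5.86 log2) had the lowest differences of all 22746 probe sets. The difference was -4.08 for AT2G37540, -0.96 for AT2G22425 and -0.86 for AT1G26850 (limma adjusted p between 0.0127 and 0.0306 for the 5, and between 0.100 and 0.144 with the replicate block). Without sorted replicate 3 or any 1 meristem none of the 5 was called (adjusted p between 0.0563 and 0.126), nor was AT2G37540 without sorted replicate 2 (0.0536). With the spike-in block AT5G60530 was called (0.0407) and the other 4 were not (between 0.0670 and 0.117).

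AT3G19430 read 10.14, 10.61 and 9.71 in the meristems and 5.16, 2.61 and 4.60 in the sorted cells. AT5G60530 read 10.14, 10.37 and 9.71 in the meristems and 5.22, 2.96 and 4.45 in the sorted cells. Sorted replicate 2 was the lowest and sorted replicate 1 the highest in both, the order seen in the 3 lectin genes. Both were picked for their likeness over these same arrays, which favours that order, so nothing is read from it. In sorted replicate 2, AT3G19430 (2.61) and AT2G37540 (2.48) lay within 0.5 of the lowest value, treated here as background. The size of the fall of these genes, and so their likeness to the lectin genes, is limited there.

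**Figure D4:**
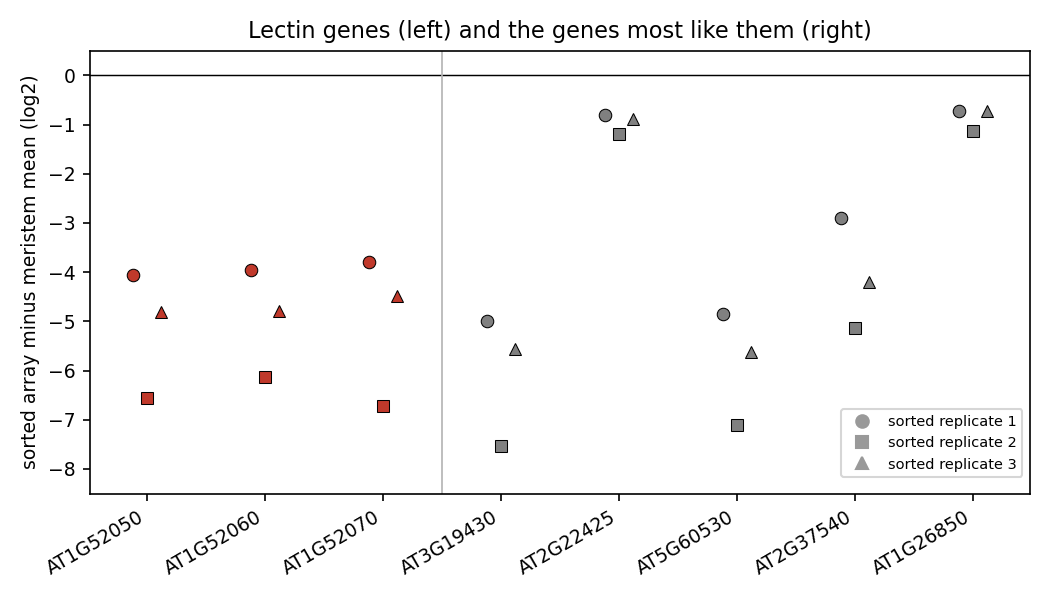
Level of each sorted array minus the meristem mean (log2, y axis) for the 3 lectin genes with signal (red) and the 5 genes with the most similar profile (grey): circles, squares and triangles are sorted replicates 1, 2 and 3. Replicate 2 is lowest for all 8 genes, from -7.54 for AT3G19430 to -1.13 for AT1G26850. The 5 grey genes were picked for their likeness over these same arrays, which favours a shared order. For AT3G19430 and AT2G37540 the reading of replicate 2 is at background, which limits the size shown.

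Markers were read beside these results. The mitotic kinases AUR1 and AUR2, the measured genes of 7 mitotic markers, rose in the sorted cells by 2.09 and 2.47 log2 (limma adjusted p = 0.00851 and 0.00594, with the replicate block 0.0689 and 0.0821). In sorted replicates 1, 2 and 3 AUR1 read 8.90, 9.58 and 9.36, and AUR2 read 9.03, 9.70 and 9.36. That is the reverse of the order in the lectin genes. Both cortex markers fell. AT1G09750 (PEP) read 7.91, 7.57 and 7.14 in the meristems and 3.42, 3.11 and 2.54 in the sorted cells (-4.52, limma adjusted p = 0.00512), and its sorted samples did not follow the order of the lectin genes, since replicate 3 was lowest. AT1G62500 (CO2) had a difference of -0.79 (limma adjusted p = 0.0191, with the replicate block 0.129), and its call was lost without any 1 array other than sorted replicate 1 or meristem replicate 2 (between 0.0555 and 0.0709), with the spike-in block (0.0781) and with the trended prior (0.0860). The sorted samples of CO2 read 3.41, 3.38 and 3.51, with replicate 3 highest. The listed markers of endodermis, root cap, stele and stem cell niche were not analysed here. In these bulk samples fewer cells of a type and less RNA per cell cannot be told apart, nor can sorting be told apart from dissection; the part of the tissue make-up in the fall of the lectin genes was not tested.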

How the data were processed

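The deposited table holds log2 values for 22810 probe sets on 6 Affymetrix arrays. Per the submitters' processing notes the authors made them with GCRMA, which corrects background, normalizes across arrays and summarises probes; no version is stated there. Of the values tested, 28.2% stood at the lowest value, 2.27. Arrays have no read depth, and 3 per group limit the precision. The 64 control probe sets were left out. The platform annotation gave 1 gene for 13513 of the 22746 tested probe sets, several for 503 and none here for 8730; names follow RefSeq assembly TAIR10.1 (13436 matched by gene identifier), with no coordinates because the files name no build.

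Sorted cells and meristems were compared in R 4.3.3 with limma 3.58.1 (lmFit and eBayes, no trend, not robust), with Benjamini-Hochberg adjustment over all 22746 probe sets and a call at adjusted p under 0.05. The 95% intervals use the moderated SE. The fit was tested on simulated data. Ratios within arrays, chosen after the values were seen, are descriptions. The alternatives were centring on 4 reference genes, quantile normalization, a filter at the median level (3.71), a trended robust prior, a replicate block, a spike-in block and each array left out.

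Same-numbered samples were taken as paired for the replicate block from the data, not from the labels: their deviations from the group means correlated at 0.122, 0.249 and 0.106 over 11503 probe sets. Differently numbered samples correlated at -0.229 to 0.050. Deviations within a group cancel out by construction, which in part sets these signs, so the basis for the pairing is weak. Members and lists were chosen with earlier results of these data known. The genes named are all members, up to 6 called and the 2 most abundant uncalled genes of the lectin and the ER body lists, up to 4 called flanking genes or else the 2 with the smallest p, the 5 most similar profiles, and up to 2 called markers per cell type; genes outside this rule are marked as such. Planned descriptions of protein and promoter sequences were not made, and no sequence is shown.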

Additional observations from a re-analysis of the deposited data

How the results depend on the processing

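AT1G52050, AT1G52060 and AT1G52070 kept a negative difference in all 12 alternatives and their call in 6 of them. The differences were -4.06, -3.95 and -3.79 with the spike-in block, which sets sorted replicate 1 alone against the meristems. With the replicate block they were -5.14, -4.96 and -4.997, unchanged in size but not called. The SE hardly moved either, at 0.73, 0.67 and 0.87 against 0.74, 0.67 and 0.87 in the main fit. That block fits more terms to the same 6 samples, which leaves less to estimate the spread. Leaving out 1 array gave -5.68 to -4.43, -5.46 to -4.37 and -5.60 to -4.14. The count of members called was 0 with either block and 5 with centring on the reference genes, which adds the same shift of 0.19 log2 to every gene and so calls the 2 background members higher; without 1 array it was 0 to 3. Among the 4 reference genes PEX4 was itself called lower, and 3 of the 4 had an unadjusted p under 0.05. That centring gave 14927 calls over the table (87.0% higher against 38.6%), the trended prior 1249 and the replicate block 235, and leaving out 1 array 959 to 3383; with the spike-in block 53.6% of the calls were higher. Outside lectins called numbered 13 with centring, 1 with the trended prior, 0 with the replicate block, 1 with the spike-in block and 0 to 2 without 1 array. ER body genes called numbered 3 with centring. Flanking genes called numbered 14 with centring, 1 with the median filter (AR791), 1 with the spike-in block (the pseudogene AT1G52010, at background) and 0 to 1 without 1 array (TRZ3 without sorted replicate 1, AR791 without sorted replicate 2; TRZ3 and AT1G52010 were named after their values were seen). Without sorted replicate 1 the calls over the table numbered 3383, against 2614 in the main fit, and without any other array they were fewer. Apart from the shift under centring, the cause of these changes was not tested. For the other 19 named genes, of 225 values 167 kept their side of the threshold, 53 lost a call and 5 gained one, and no called difference changed sign. With the replicate block AT1G09750 was the 1 named gene still called.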
